A study of Mus musculus with 6 samples.

Results

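The genes described here are 8 genes of cholesterol synthesis and its control by the transcription factor SREBP2: Hmgcs1, Idi1, Fdps, Fdft1, Sqle, Lss, Cyp51 and Insig1. They were chosen by name, and each gene is represented by its RefSeq transcript with the highest base mean, the mean normalised count over the libraries of the study. All 8 had a row among the 25112 genes of the table, and 6 of them had an adjusted p-value, against 11038 genes in all. The cells were primary epidermal keratinocytes from wild type C57BL/6 mouse pups at postnatal day 1 to 3, grown in medium with 0.05 mM calcium. They were transfected with miR-Control (3 libraries) or with pro-miR-148a at 200 nM (3 libraries), which raises the microRNA miR-148a, and RNA was taken after 48 h. The labels do not tie the libraries to separate cultures or animals, so the p-values may measure technical spread. The titles of the first and the third pro-miR-148a library carry the same number before the replicate number. The data are the authors' table of this comparison, with a log2 fold change, its standard error (SE) and p-values for each transcript. Values of single libraries are not part of it, so their depth is unknown and their spread enters only through the SE.

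Cholesterol is built from acetyl-CoA through mevalonate, isoprenoid diphosphates, squalene and lanosterol. The enzymes of this route are switched on together when sterols in the endoplasmic reticulum run low: SCAP then escorts SREBP2 to the Golgi, where proteases release its transcription factor domain. When sterols are plentiful, INSIG proteins hold SCAP back, and INSIG1 is itself a product of an SREBP target gene. In the epidermis, cholesterol is a main lipid of the permeability barrier, beside ceramides and free fatty acids.

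Which group is the numerator of the fold changes is not stated in the table, and every direction below rests on a reading of its sign. MicroRNAs lower the transcripts they pair with. As deposited, the 362 tested genes with an 8mer site for miR-148a-3p in the 3' untranslated region (UTR) of the measured transcript had a median log2 fold change of 0.12, and the 7668 without a 7mer or 8mer site had one of -0.02. Their UTRs also differed in length, with medians of 2147 and 776 bases. Among genes with a UTR of at least 1000 bases the medians were 0.12 (293 genes with an 8mer) and -0.01 (3188 without a site). The values were therefore read as control over miR-148a, which is also the order in which the deposited table's title names the groups, and all signs below are turned to make a positive value mean more RNA with miR-148a. If the reading were wrong, every direction would turn together.

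The sequences below show the microRNA and, for 5 genes whose values follow, its 8mer or 7mer-m8 site in the GENCODE M21 3' UTR of the measured transcript. The first 3 are the chosen genes with such a site, Lbr is a synthesis enzyme with an 8mer that fell, and Nceh1 is a gene of sterol ester breakdown that rose. Capitals mark the seed of the microRNA (bases 2 to 8) and the site in each UTR, which pairs with it: TGCACTG is a 7mer-m8 site, and the same letters followed by A are an 8mer. A match is a description of the sequence, not evidence of pairing.
miR-148a-3p: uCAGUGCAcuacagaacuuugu
Idi1: tcccatatataTGCACTGAtgtctgtaaaa
Insig1: agtcagggttcTGCACTGcgatgctggac
Lss: gtagtgctttcTGCACTGgtatctccaat
Lbr: aactaatgtgaTGCACTGAcaggatctcta
Nceh1: gggaggctacaTGCACTGgatatgtcctt
In GRCm38 the 8mer of Idi1 lies at chr13:8890799-8890806 on the plus strand, at bases 164 to 171 of a UTR of 1816 bases. The 7mer-m8 sites of Insig1 (chr5:28077466-28077472, plus strand, bases 646 to 652 of 1842) and of Lss (chr10:76554503-76554509, plus strand, bases 1435 to 1441 of 2411) are also exonic UTR sequence. The 8mer of Lbr (chr1:181816781-181816788, minus strand) and the 7mer-m8 of Nceh1 (chr3:27242495-27242501, plus strand) lie in UTRs of 1523 and 3140 bases. Hmgcs1 has the weaker 7mer-A1 type alone, GCACTGA, at 2 places, and Lss has 1 such site beside its 7mer-m8. No site of these kinds was found in the UTR of Fdps, Fdft1, Sqle or Cyp51. Of all 9530 tested genes with a matched UTR, 3.80% had an 8mer and a further 9.67% had a 7mer-m8 as their best site.

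The 8 genes did not move as a block. With miR-148a, Idi1 and Cyp51 fell, Insig1 and Sqle rose, and Fdps and Lss did not pass the test. Hmgcs1 and Fdft1, at base means of 1.6 and 2.2, have no adjusted p in the authors' deposited table and are not counted as tested. The 4 genes past the authors' adjusted p of 0.05 are 66.7% of the 6 tested, beside 33.5% of all tested genes (16.7% higher and 16.8% lower) and 39.1% of those with 1 transcript in the table. Among tested genes whose base mean reached 500, where all 6 lie, 54.1% were called (30.3% higher and 23.8% lower). The share called is therefore not a result about these genes, and what the values show is the spread of directions. Their log2 fold changes ran from -0.59 to 0.53 with a median of -0.14, beside a median of -0.01 over all tested genes. The median size of the 6 changes, 0.33 on the log2 scale, compares with 0.22 over all genes whose base mean reached 500. In this bulk RNA, fewer cells of a type and less RNA per cell cannot be told apart.

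**Figure D1:**
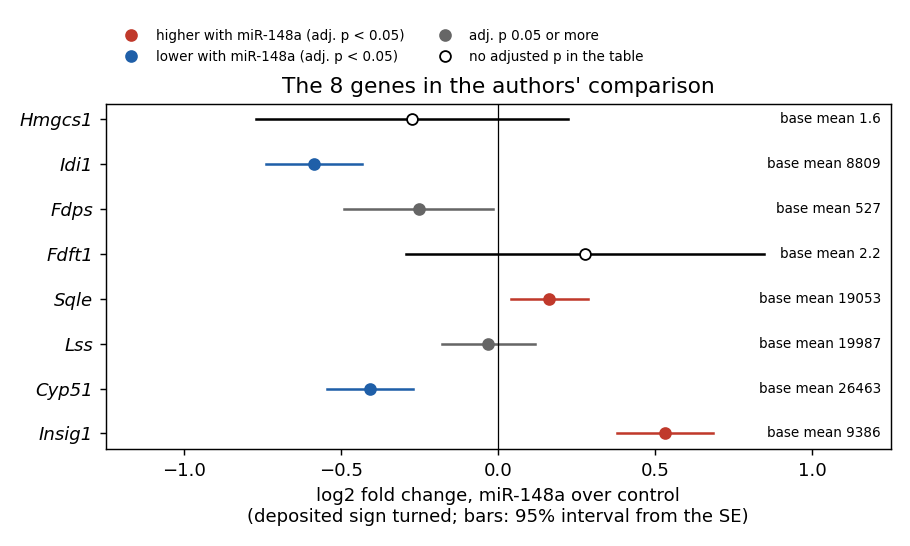
Log2 fold change (miR-148a over control, horizontal axis) of the 8 genes in the authors' deposited table, with 95% intervals from the SE as bars and the base mean at the right. Idi1 and Cyp51 lie left of 0, Insig1 and Sqle right of it, and the open points of Hmgcs1 and Fdft1 have no adjusted p.

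Idi1 encodes isopentenyl-diphosphate isomerase, which interconverts the 5-carbon building blocks of all isoprenoids. Its base mean of 8809 splits into an implied mean normalised count of 10576 in control and 7041 with miR-148a, taking the base mean as the average of 2 equal groups and the fold change as deposited. In the authors' deposited table Idi1 fell 1.5-fold (95% interval 1.35 to 1.67, log2 fold change -0.59 ± 0.08 SE, interval -0.74 to -0.43, adjusted p = 7.64e-13). This was the largest change in size among the 6 tested genes, with the rise of Insig1 (0.53 ± 0.08 SE) close to it. Idi1 carries an 8mer, and the synthesis genes Tm7sf2 (-0.73) and Pmvk (-0.67), which have no site, fell more. A link between site and change was not tested.

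Cyp51, the cytochrome P450 that removes a methyl group from lanosterol, had the highest base mean of the 8 genes, 26463. Its implied means were 30182 in control and 22744 with miR-148a. Cyp51 fell 1.33-fold in the authors' deposited table (log2 fold change -0.41 ± 0.07 SE, 95% interval -0.55 to -0.27, adjusted p = 6.5e-08). It has no 7mer or 8mer site in its UTR of 1980 bases, so the pair of genes that fell is mixed in this respect.

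Insig1 encodes the endoplasmic reticulum protein that retains SCAP when sterols are plentiful. The implied means were 7675 in control and 11098 with miR-148a, at a base mean of 9386. Insig1 rose 1.45-fold in the authors' deposited table (log2 fold change 0.53 ± 0.08 SE, 95% interval 0.38 to 0.69, adjusted p = 1.7e-10). It is the only gene among the 8 that acts in sensing rather than synthesis, it has a 7mer-m8 site, and its interval does not overlap that of any other tested gene of the 8.

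Sqle encodes squalene epoxidase, a rate-limiting oxygenase of the sterol branch. Its implied means of 17974 in control and 20132 with miR-148a lie close together. In the authors' deposited table Sqle rose 1.12-fold (log2 fold change 0.16 ± 0.06 SE, 95% interval 0.04 to 0.29, adjusted p = 0.0287). The call of Sqle ended when fold changes were centred on the median of the transcripts with a base mean of at least 100 (0.14, adjusted p = 0.0792 from the recentred Wald test) and at a threshold of 0.01. Over all alternatives tried its adjusted p ran from 0.0181 to 0.0792.

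Lss, the lanosterol synthase that closes the sterol rings, had nearly equal implied means of 20203 in control and 19772 with miR-148a. Its log2 fold change was -0.03 ± 0.08 SE (95% interval -0.18 to 0.12, adjusted p = 0.817), as listed in the authors' deposited table, and its UTR holds a 7mer-m8. Fdps, the farnesyl diphosphate synthase at the branch point to sterols and prenylated proteins, had implied means of 573 in control and 481 with miR-148a. Its log2 fold change was -0.25 ± 0.12 SE (95% interval -0.49 to -0.02, adjusted p = 0.1), as listed in the authors' deposited table, which did not pass after adjustment although the unadjusted interval leaves out 0. Fdps has the widest interval and the lowest base mean, 527, of the 6 tested genes.

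Per kilobase of transcript, the level of the tested genes was highest in Sqle and Cyp51, at base means of 6908 and 6732 per kb. Lss followed with 4283 per kb, then Insig1 with 3480 and Idi1 with 2910, and Fdps was lowest with 382 per kb. No spread over libraries is known for these levels, so neighbours in the order could not be compared.

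Hmgcs1, the HMG-CoA synthase at the start of the route, and Fdft1, the squalene synthase, are each listed with 2 RefSeq transcripts. The higher of the pair had a base mean of 1.6 for Hmgcs1 and 2.2 for Fdft1 in the authors' deposited table, and the other was at 0. Their log2 fold changes of -0.27 ± 0.25 SE and 0.28 ± 0.29 SE have no adjusted p in the authors' deposited table. Fdps also has 2 transcripts, of which 1 was listed at 0. The other 5 genes have 1 transcript each, with base means from 8809 to 26463.

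The same pattern ran through the wider pathway. Of 79 genes of 9 sterol and lipid lists with a row, 47 have 1 transcript in the table, and 45 of these had a base mean of at least 100. Of the 32 genes with 2 or more transcripts, only 3 did. Over all rows, genes with 2 or more transcripts had 73.9% of them listed at 0, against 34.5% for genes with 1. The low values of Hmgcs1, Fdft1 and other genes with several transcripts therefore cannot be read as low expression. The sources used here do not say how reads that match several transcripts were counted.

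**Figure D2:**
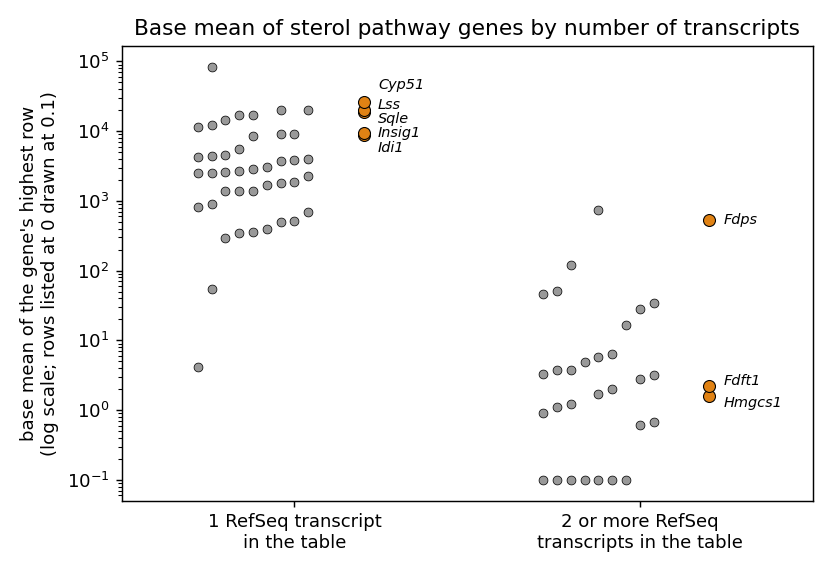
Base mean of the highest row (vertical log axis, rows listed at 0 drawn at 0.1) of the 79 sterol and lipid pathway genes with a row, by the number of RefSeq transcripts in the table. Orange points are the 8 genes: the 5 with 1 transcript lie between 8809 and 26463, and Hmgcs1 and Fdft1 lie under 3.

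Among the other cholesterol synthesis enzymes, 6 genes fell and 1 rose. Of 13 enzymes 12 were tested in the authors' deposited table, the remaining 5 did not pass, and the median log2 fold change was -0.20. Together with the 7 enzymes among the chosen genes, 8 of 17 tested enzymes fell, 2 rose and 7 missed the threshold, at a median log2 fold change of -0.23. Read against the background, 58.8% were called in either direction, beside 33.5% of all tested genes. The base mean of 15 of the 17 reached 500, and 10 of these 15 were called, beside 54.1% at that level. Genes called lower made up 16.8% of all tested genes and 23.8% of those at that level. No test over the list was made.

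Of the decreases, Pmvk alone lay in the mevalonate segment, where Acat2 did not pass and Hmgcs1, Mvk and Mvd could not be judged. Idi1 lay in the isoprenoid segment, and the others between lanosterol and the last reductions. Tm7sf2, a sterol reductase, fell 1.66-fold (authors' deposited table, log2 fold change -0.73 ± 0.13 SE, implied means 646 and 390, adjusted p = 1.75e-07). Pmvk, the phosphomevalonate kinase, fell 1.59-fold (authors' deposited table, -0.67 ± 0.13 SE, adjusted p = 3.78e-06). Hsd17b7, a sterol ketone reductase, fell 1.46-fold (authors' deposited table, -0.55 ± 0.07 SE, implied means 14339 and 9812, adjusted p = 1.19e-12). The sizes of these 3 decreases bracket that of Idi1.

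The sterol isomerase gene Ebp fell 1.41-fold (authors' deposited table, -0.50 ± 0.07 SE, adjusted p = 2.07e-12). Smaller decreases were those of Lbr, which encodes a nuclear envelope protein with sterol reductase activity and has an 8mer (-0.23 ± 0.07 SE, adjusted p = 0.0019), and of the methylsterol oxidase gene Msmo1 (-0.16 ± 0.05 SE, adjusted p = 0.0119), as listed in the authors' deposited table. The products of Tm7sf2 and Lbr catalyse the same reduction.

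Dhcr7 went the other way. It encodes the enzyme that reduces dehydrocholesterol to cholesterol, and its implied means were 7925 in control and 15312 with miR-148a. Dhcr7 rose 1.93-fold in the authors' deposited table (log2 fold change 0.95 ± 0.08 SE, 95% interval 0.78 to 1.12, adjusted p = 9.03e-28), the largest change of any tested synthesis enzyme.

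Other enzymes that did not pass had narrow intervals around small values: Acat2, the acetyl-CoA acetyltransferase (0.02 ± 0.09 SE), and the sterol desaturase Sc5d (-0.04 ± 0.07 SE), in the authors' deposited table. The sterol dehydrogenase Nsdhl had 0.20 ± 0.08 SE (authors' deposited table, adjusted p = 0.0588). Mvd (base mean 6.38), Erg28 (16.6) and Mvk (0.918) could not be judged, and all have 2 or more transcripts in the authors' deposited table.

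**Figure D3:**
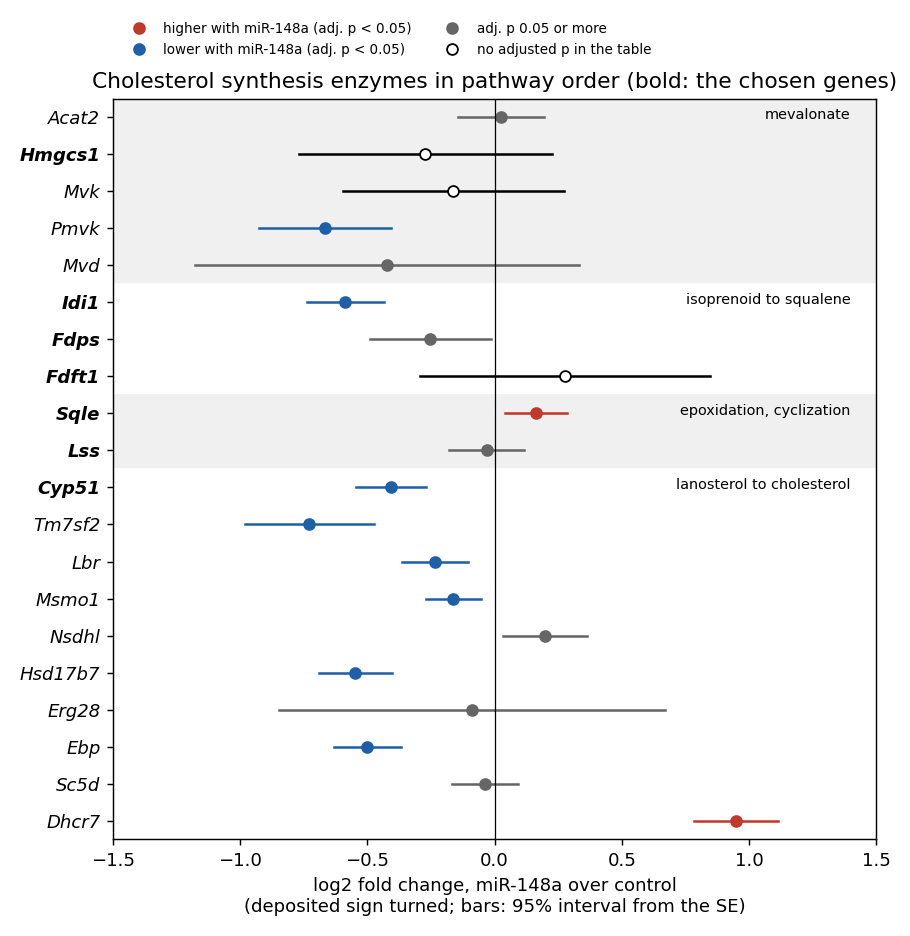
Log2 fold change (miR-148a over control, horizontal axis, bars 95% intervals) of 20 cholesterol synthesis enzymes in the order of the pathway, from the authors' deposited table. Sqle and Dhcr7 are the only enzymes past the test on the right, and 8 are past it on the left; Tm7sf2 and Lbr share a step.

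**Figure D4:**
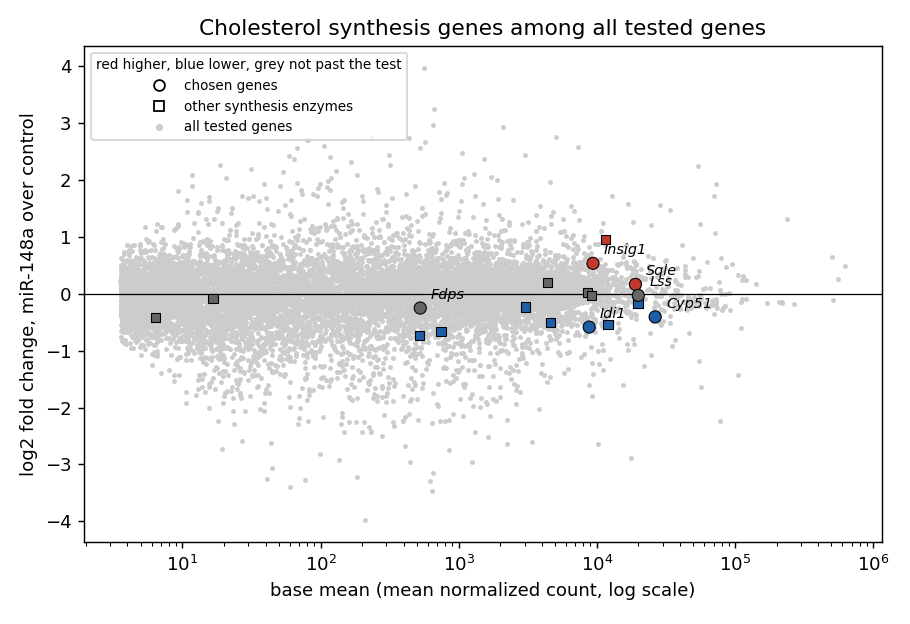
Log2 fold change (miR-148a over control) against base mean (log axis) for the 11038 tested genes (grey), the 6 tested chosen genes (circles) and the other 12 tested synthesis enzymes (squares). The coloured points lie within the cloud of all genes, between -0.73 and 0.95.

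The list of SREBP sensing and processing holds Srebf1 and Srebf2 themselves, while Insig1 is counted with the chosen genes. Of its 7 tested genes, 2 rose and 5 did not pass in the authors' deposited table, and none fell, also at an unadjusted p under 0.05 (28.6% called, beside 33.5% of all tested genes). Of the 4 with a base mean of at least 500, 2 were called, beside 54.1% at that level. Srebf2, the gene of SREBP2 itself, had implied means of 17626 in control and 16054 with miR-148a. Its log2 fold change of -0.13 ± 0.07 SE did not pass (authors' deposited table, adjusted p = 0.138). The 2 that rose were Pgrmc1, a heme-binding membrane protein that partners with cytochromes P450 (0.22 ± 0.06 SE, adjusted p = 0.00167), and Sec24d, a coat subunit of vesicles that leave the endoplasmic reticulum (0.26 ± 0.09 SE, adjusted p = 0.0181), as listed in the authors' deposited table.

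Mbtps2, the site-2 protease that frees SREBP2 in the Golgi, had -0.09 ± 0.09 SE (adjusted p = 0.543), as listed in the authors' deposited table. Scap, Insig2 and Srebf1 had base means of at most 5.71 and Mbtps1 of 0.678 in the authors' deposited table, and all 4 have several transcripts, so nothing can be said of their level. Genes that control the turnover of sterol synthesis enzymes gave 0 calls among 6 tested by the authors' adjusted p from DESeq2 (1 at an unadjusted p under 0.05), beside 33.5% of all tested genes. Only 2 of the 6 reached a base mean of 500, where 54.1% were called. Erlin1 (base mean 3.72) and Erlin2 (34.3) have several transcripts and could not be judged, so the 0 calls do not show a lack of change. With the transcript of lowest adjusted p in place of the most abundant, 1 gene was called: Rnf145 had 0.83 (adjusted p = 0.0235) by that row and -0.14 (adjusted p = 0.739) by the row used, both from the authors' deposited table. The gene past the unadjusted p was Marchf6, a ubiquitin ligase for squalene epoxidase (0.16 ± 0.07 SE, adjusted p = 0.0773), and the ligase gene Rnf139 had 0.22 ± 0.12 SE (adjusted p = 0.155), as listed in the authors' deposited table.

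Among genes of sterol uptake and transport that SREBP2 also controls, 1 of 3 tested fell and none rose, also at an unadjusted p under 0.05. That is 33.3% called, beside 33.5% of all tested genes and 54.1% of those whose base mean reached 500, as it did in all 3. Npc2, a lysosomal cholesterol carrier, fell 1.23-fold (authors' deposited table, -0.30 ± 0.07 SE, adjusted p = 4.7e-05). Its partner Npc1 (-0.02 ± 0.08 SE) and Tmem97 (-0.04 ± 0.07 SE) did not pass in the authors' deposited table, and Stard4, with a base mean of 2.81, has no adjusted p there.

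In the list of sterol efflux, storage and the LXR receptors, 3 of 5 tested genes rose, 1 fell and 1 did not pass in the authors' deposited table, beside 33.5% of all tested genes called. Of the 3 with a base mean of at least 500, 2 were called, beside 54.1%, so the number of calls is not a result about this list. Nceh1, a cholesteryl ester hydrolase with a 7mer-m8 site, rose 2.13-fold (1.09 ± 0.12 SE, adjusted p = 2.49e-17), and Soat1, which makes cholesteryl esters, rose 1.87-fold (0.91 ± 0.15 SE, adjusted p = 2.19e-08), as listed in the authors' deposited table. So an enzyme of ester formation and one of ester breakdown both rose. The sterol exporter Abcg1 rose 1.39-fold (0.47 ± 0.09 SE, adjusted p = 3.74e-07), as listed in the authors' deposited table. Mylip, a ubiquitin ligase gene that LXRs control, fell 1.46-fold (authors' deposited table, -0.55 ± 0.14 SE, adjusted p = 0.000426). Both LXR genes, Nr1h2 and Nr1h3, were listed at 0 in every transcript.

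Among enzymes of oxysterols and cholesterol sulfate 1 of 4 tested genes passed, which is 25%, beside 33.5% of all tested genes called. The number of calls is therefore not a result about this list. Cyp27a1, which hydroxylates the cholesterol side chain, fell 2.97-fold (authors' deposited table, -1.57 ± 0.15 SE, adjusted p = 2.46e-25). Its implied means were 514 in control and 173 with miR-148a. Ch25h, another cholesterol hydroxylase, had 0.31 ± 0.30 SE (adjusted p = 0.507), and Sult2b1, the epidermal cholesterol sulfotransferase, had 0.54 ± 0.33 SE at a base mean of 45.8 (adjusted p = 0.223), as listed in the authors' deposited table.

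**Figure D5:**
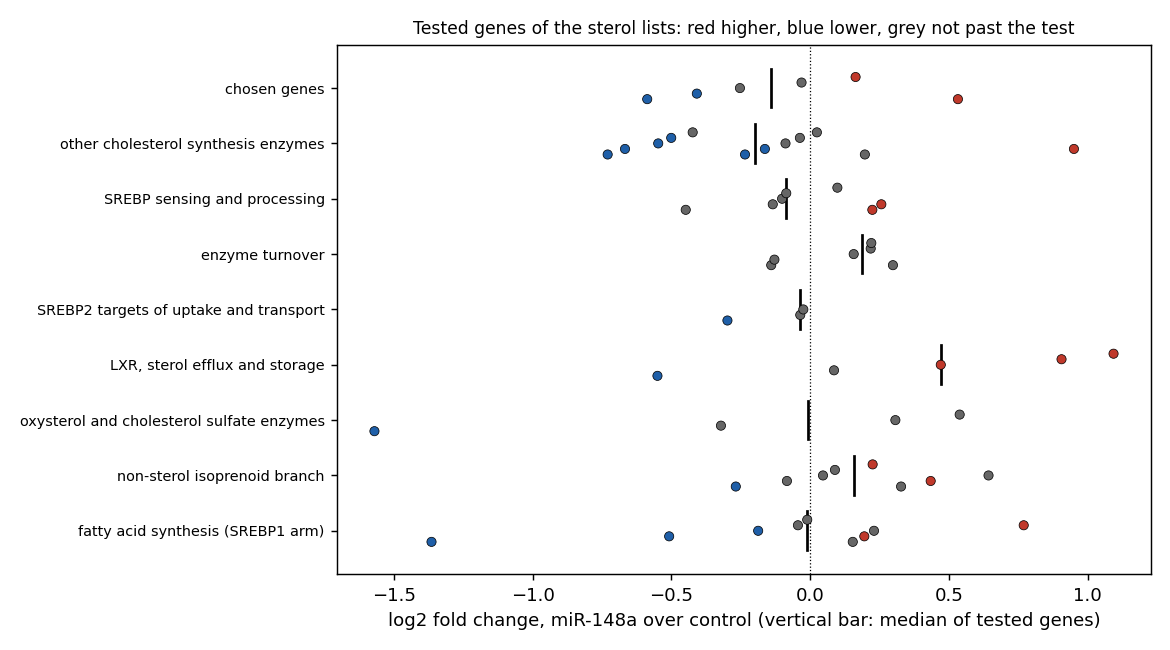
Log2 fold change (miR-148a over control) of each tested gene in 9 lists of sterol and lipid genes, from the authors' deposited table, with the median of each list as a vertical bar. Synthesis enzymes lie mostly left of 0 with Dhcr7 at 0.95, and the efflux and storage list has 3 of its 5 points past the test on the right.

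Of 8 tested genes that use the products of Fdps outside the sterol route, 2 rose and 1 fell in the authors' deposited table (37.5% called, beside 33.5% of all tested genes). Of the 6 with a base mean of at least 500, 3 were called, beside 54.1% at that level. Fntb, the catalytic subunit of protein farnesyltransferase, rose 1.35-fold (0.43 ± 0.08 SE), Zmpste24, a protease that processes farnesylated prelamin, rose 1.17-fold (0.23 ± 0.07 SE), and Coq2 of ubiquinone synthesis fell 1.20-fold (-0.27 ± 0.09 SE), in the authors' deposited table. Enzymes of fatty acid synthesis in the related SREBP1 arm were also mixed: 3 of 9 tested fell, 2 rose and 4 did not pass. That is 55.6% called, near the 54.1% of all genes whose base mean reached 500, as it did in all 9. Acss2, which makes acetyl-CoA from acetate, fell 2.57-fold (-1.36 ± 0.12 SE), the desaturase gene Scd1 fell 1.42-fold (-0.51 ± 0.08 SE), and another desaturase gene, Fads2, rose 1.70-fold (0.77 ± 0.09 SE), in the authors' deposited table. The elongase gene Elovl5 rose 1.14-fold (0.20 ± 0.07 SE, adjusted p = 0.0289), as listed in the authors' deposited table, a call that ended on recentring (adjusted p = 0.0683). No test of a difference between the cholesterol and fatty acid lists was made.

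Both directions occurred among the tested synthesis genes and Insig1 with a site for miR-148a-3p. Of the 5 with an 8mer or 7mer-m8 site, 2 fell (Idi1 and Lbr), 1 rose (Insig1) and 2 did not pass (Lss and Sc5d), with a median log2 fold change of -0.04. Of the 12 whose matched UTR has no such site, 6 fell, 2 rose and 4 missed the threshold, at a median of -0.33. Because sites over all genes set the sign of the table, these counts are no independent evidence on targets.

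The promoter windows show what the genes share ahead of their start sites. RefSeq windows (GRCm38.p6, 250 bases before to 50 after the start) were at hand for 5 of the 8 genes, Hmgcs1, Idi1, Lss, Cyp51 and Insig1. They were searched on both strands for the SREBP motif TCACNCCAC, the NF-Y motif CCAAT and the Sp1 motif GGGCGG, the latter pair being factors known to act beside SREBPs. CCAAT was found in all 5 windows, beside 37.4% of 32851 windows in the genome, and GGGCGG in all 5, beside 35.7%. All matches of Idi1 lie in the last 105 bases before its start, which GENCODE annotates as exon. The CCAAT of Cyp51 lies in the last 49 bases before its start, also annotated as exon. Among the windows of 13 other synthesis enzymes, 11 of 16 held CCAAT and 13 of 16 held GGGCGG. Of the 5 windows, that of Hmgcs1 alone held the SREBP motif, at position -137 from the start site, beside 1.24% of all windows and 0 of the 16 of the other enzymes. The letters TCACNCCAC are a strict form of a variable site, and no match says only that these letters are not in the window.

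The stretches upstream of Hmgcs1 and Insig1 are printed to contrast a window with the SREBP motif and 1 without it, the first in a gene with almost no counts and the other in the gene of the 8 that rose most. Capitals mark motif matches on either strand: TCACCCCAC for SREBP, CCAAT or its reverse ATTGG, and GGGCGG or its reverse CCGCCC. They lie at chr13:119690101-119690350 (Hmgcs1, plus strand) and chr5:28071162-28071362 (Insig1, plus strand) in GRCm38.p6, upstream of annotated exons, and no match in them overlaps another.
Hmgcs1: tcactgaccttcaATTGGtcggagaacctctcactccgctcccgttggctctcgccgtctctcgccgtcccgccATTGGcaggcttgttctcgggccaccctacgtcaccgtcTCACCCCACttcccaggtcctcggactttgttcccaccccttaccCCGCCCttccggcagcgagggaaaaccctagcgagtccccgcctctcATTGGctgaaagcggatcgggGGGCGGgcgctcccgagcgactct
Insig1: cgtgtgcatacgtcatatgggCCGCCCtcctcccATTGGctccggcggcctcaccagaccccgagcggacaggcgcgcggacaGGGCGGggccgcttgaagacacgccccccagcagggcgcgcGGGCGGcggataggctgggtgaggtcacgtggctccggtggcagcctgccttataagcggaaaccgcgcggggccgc

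The authors' table of gene ontology categories lists 9 activities that name a step of sterol or isoprenoid metabolism, among them isopentenyl-diphosphate isomerase, squalene monooxygenase and lanosterol synthase. In the authors' deposited table none of the 9 holds a changed gene, and their adjusted p-values for over-representation are all 1. Idi1, Sqle, Hsd17b7, Ebp and Msmo1 passed the adjusted p of 0.05 in the expression table. The sources used here do not state which rule chose the changed genes behind the categories.

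Markers of the cells in the culture moved beside these genes. Krt5, the keratin of basal keratinocytes, had a base mean of 630448 and rose (log2 fold change 0.49 ± 0.06 SE) in the authors' deposited table, while Trp63 was listed at 0 in all 8 transcripts and Krt14 had a base mean of 40.3. Of 6 tested basal markers 2 rose, Krt5 and Krt15 (1.64 ± 0.30 SE), and 4 did not pass, from -0.47 for Itga6 to 0.10 for Krt14 (median of the 6 at 0.06), in the authors' deposited table. Over all tested genes 33.5% were called. The 4 that did not pass have 2 or more transcripts each and base means from 4.22 (Itgb4) to 40.3 (Krt14). They could not be judged, and the median of the 6 cannot be read as a lack of change. Of 6 suprabasal keratinocyte markers 5 fell and 1 did not pass (summed base mean 45558, log2 fold changes from -1.32 to -0.59). The 5 that fell all had base means of at least 500, where 54.1% of tested genes were called and 23.8% were lower. Of 7 tested fibroblast markers 4 fell and 3 did not pass (summed base mean of the list 22853, against 84230 for the 8 chosen genes). Of 4 tested melanocyte markers 1 fell, and the 2 with a base mean of at least 500, Dct and Pmel, did not pass. That is 57.1% and 25% called, beside the 33.5% of all tested genes. The 4 fibroblast markers that fell also had base means of at least 500. Postn was listed at 0 in all 6 transcripts, so the fibroblast sum cannot be read as the full level of these markers. The summed base means of immune (63.5), endothelial (125), adipocyte (301) and sebocyte (151) markers were small, and in these lists Ptprc, Cd74, Pecam1, Plin1 and Cidec were listed at 0. Each of these genes at 0 has 2 or more transcripts, but Cd207 of the immune list, with 1 transcript, was also at 0. Base means under 1 also occurred in markers with 1 transcript: Cd3e (0.332), Cdh5 (0.332), Adipoq (0.766) and Elovl3 (0.321). Others with 1 transcript were higher, such as Vwf (104) and Fabp4 (298). With genes of several transcripts in every list, the sums do not measure how many such cells were present. Of the adipocyte list only Fabp4 was tested, and it rose (1.56 ± 0.15 SE), while the immune markers Lyz2 and C1qa fell (-2.63 ± 0.34 and -2.72 ± 0.39 SE), in the authors' deposited table. The part of any of these shifts in the sterol gene values was not tested.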

How the data were processed

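The expression table deposited by the authors holds, per the file headers, 42885 RefSeq transcripts, each with a base mean (a signal: the mean normalised count over libraries), a log2 fold change, its standard error and a Wald score, and a p-value with its adjusted p-value. A GO table lists gene numbers and p-values for each category. Per the submitters' processing notes, the tools include DESeq2 and the build is mm9. Aligner, counter and annotation: not given in the sources used here. No column holds a single library, so library depths are unknown, no model was fitted, and the authors' adjusted p at 0.05 is the test. The largest SE was 0.39, also at low means, and no transcript with a base mean below 1 had a log2 fold change over 0.25 in size, so fold changes at low means look shrunken and may be understated.

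Transcripts were paired with symbols by RefSeq accession (GRCm38.p6 annotation, 42739 of 42885 matched), and the row with the highest base mean stood for a gene. Intervals are the log2 fold change ± the normal 95% quantile times the SE. UTR sites were searched in the GENCODE M21 3' UTR (at least 20 bases) of the transcript matched to the measured RefSeq accession, and genes without a match were left out, and sequences came from GENCODE M21 and RefSeq. The recentred Wald test was tested on simulated data. The members, the 9 pathway and 8 marker lists and the rule for naming genes (all chosen genes, other synthesis enzymes and sensing genes, and up to 4 called genes of each further list, or its 2 most abundant where fewer than 2 were called) were set with earlier results of these data known. Some genes of these lists are not reported here and were left out of every list count, median and figure of lists, for reasons unrelated to their values. Genes at or near 0, other marker genes, and Tmem97, Stard4, Rnf145 and Sult2b1 were named after their values were seen. Python 3.11.15, pandas 2.3.3, numpy 2.4.6 and scipy 1.17.1 were used.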

Additional observations from a re-analysis of the deposited data

How the results depend on the processing

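Alternatives were a threshold of 0.01, no filter on low means, a base mean of at least 100, recentring by 0.03 (the median log2 fold change of 6496 transcripts), the transcript with the lowest adjusted p and, chosen after seeing the data, only genes with 1 transcript. Idi1, Cyp51 and Insig1 kept direction and call under all of these (adjusted p up to 1.16e-12, 9.86e-08 and 1.56e-09), and Fdps and Lss did not pass under any. Of the results that answer a comparison, 163 values stayed within 1.5 times the count reported or, for medians, within the median SE of the list. These include smaller shifts: 7 synthesis enzymes called lower at 0.01, 2 fatty acid genes called lower at 0.01 and with no filter, and an oxysterol median of -0.32 with 1-transcript genes. Larger shifts were as follows. At 0.01, genes called higher went to 1 among the chosen genes, 1 among all synthesis enzymes, 1 in the sensing list and 1 in the fatty acid list, and genes called lower to 0 in the isoprenoid branch. Recentring gave 1 called higher among the chosen genes, all synthesis enzymes and the fatty acid list. With a base mean of at least 100, 2 other synthesis enzymes were called higher, Nsdhl joining Dhcr7, and medians became 0.069 in the sensing list, 0.068 in the isoprenoid branch and -1.57 in the oxysterol list, where 1 gene was left. With no filter, medians became 0.086 for efflux and storage, -0.15 for uptake and 0.068 for the isoprenoid branch. With 1-transcript genes only, medians became -0.031 for the chosen genes, where Fdps was left out, 0.069 in the sensing list and 0.068 in the isoprenoid branch. The transcript with the lowest adjusted p gave 1 called higher in the turnover list and reversed Rnf145 (0.83, adjusted p = 0.0235). Each alternative changes by its construction the genes tested, the threshold, the centre or the transcript.

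The deposited median of genes with an 8mer exceeded that of genes without a site by 0.13, by 0.12 with the longest UTR of each gene and by 0.13 among UTRs of at least 1000 bases, both chosen after seeing the data.

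No paired analysis was possible because the files hold no value per library. Leaving out replicates and a count test were not run for the same reason. Genes with base means under about 100 have SEs of up to 0.39, which limits what can be called.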
